A study of Drosophila melanogaster with 47 samples.

Results

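Transposable elements are the mobile DNA of the fly genome, and the counts tables of female midguts listed single insertions of them beside the genes. The members described here are all 1167 insertions in 3 tables, chosen because their identifiers are not gene identifiers, and they were grouped by the family named in their symbol. They stood among 13131 genes and insertions listed in all. For whole guts 501 insertions were listed among 11136 entries, for progenitors 1059 among 12187 and for Actin guts 594 among 11000. The insertions belonged to 107 named families, and 10 insertions carried no family name. All 1167 matched an entry of the BDGP6 annotation, which holds 6381 insertions of 134 families.

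Retrotransposons move through an RNA copy that is reverse transcribed into DNA. Those with long terminal repeats (LTRs), such as copia, roo, Dm88, Idefix and 17.6, resemble retroviruses, and those without, such as Doc, G2 and jockey, resemble mammalian LINEs. DNA transposons such as pogo, hopper and 1360 move by excision, and INE-1 is an old, short, Helitron-related element that is no longer mobile and is enriched on chromosome 4 and in pericentric regions. In flies, Piwi-interacting RNAs (piRNAs) silence elements chiefly in the gonad, and small interfering RNAs made by Dicer-2 and loaded on Argonaute 2 silence them chiefly in somatic tissue, with heterochromatin proteins acting on their chromatin. RNA counted on an insertion can come from the element's own promoter, from a gene transcript that runs through it, or from a near-identical copy elsewhere.

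RNA was measured in adult female Drosophila melanogaster in 8 groups of 4 libraries. The mated progenitor and unmated progenitor groups held esg+ cells sorted by flow cytometry from esg-Gal4 guts, with 100 to 150 guts for each library. The mated and unmated whole gut groups held pools of 15 esg-Gal4 guts, and the Actin groups below held pools of 15 guts. The mated and unmated EcR RNAi groups carried Actin-Gal4, a ubiquitous driver, with RNAi against EcR, the ecdysone receptor, and the mated and unmated Actin control groups carried Actin-Gal4 alone. Actin flies of both genotypes were held for 5 days at 29 °C before mating at 25 °C. Mated females were kept with males for 48 h, and unmated females were kept apart from males. The replicates are pools of guts, so p-values measure the spread between pools. In the libraries labelled EcR RNAi, EcR RNA was not lower than in their controls. Levels are given as CPM, the count scaled to library size as adjusted by edgeR's TMM. EcR had 8.22, 9.56, 11 and 9.47 CPM in mated EcR RNAi guts, against 7.20, 7.89, 9.39 and 8.48 CPM in mated controls (edgeR, adjusted p = 0.305). In unmated EcR RNAi guts it had 14.6, 12.5, 12.5 and 11.8 CPM, against 7.15, 9.45, 7.45 and 8.24 CPM in unmated controls, a log2 fold change of 0.67 ± 0.11 (SE; edgeR quasi-likelihood test with Benjamini-Hochberg adjustment, adjusted p = 0.00103). Their groups are therefore named by their labels, and no direction below is credited to less EcR.

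Sorted cells carried the markers of their label, as 9 progenitor genes including esg and Dl summed to 3483 to 4892 CPM in progenitors of mated flies and 3335 to 4008 CPM in those of unmated flies, against 119 to 166 CPM in mated and 96.4 to 163 CPM in unmated whole guts. Libraries held 13718418 to 44260161 counts, of which 5087 to 76329 fell on insertions. Progenitor libraries were the deepest, and 466 insertions were listed for progenitors alone. In such bulk RNA, fewer cells of a type and less RNA per cell cannot be told apart.

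By position, 600 insertions lay in an intron of a gene, 87 overlapped an exon and 480 lay in no gene. Of those in a gene, 430 had the strand of the gene and 257 the opposite one. LTR retrotransposons made up 457 insertions, non-LTR retrotransposons 289, INE-1 240 and DNA transposons 170, with 11 unclassified. Element RNA was a small part of every library. Insertions held 0.1003%, 0.0927%, 0.0997% and 0.0928% of all counts in mated progenitors, against 0.204%, 0.168%, 0.121% and 0.220% in unmated progenitors. In whole guts they held 0.0444%, 0.0547%, 0.0556% and 0.0459% in mated flies, against 0.0420%, 0.0312%, 0.0380% and 0.0447% in unmated flies. In Actin guts the 4 groups lay between 0.0415% and 0.0781%. The highest shares were thus those of unmated progenitors, where the lowest of 4 libraries exceeded every library of the other 7 groups. Each table had its own list of insertions, however. The 364 insertions listed in all 3 tables, which include no Dm88, held 0.0770%, 0.0786%, 0.0801% and 0.107% in unmated progenitors. In mated progenitors they held 0.0746%, 0.0716%, 0.0785% and 0.0728%, so over these insertions the 2 groups overlapped.

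**Figure D1:**
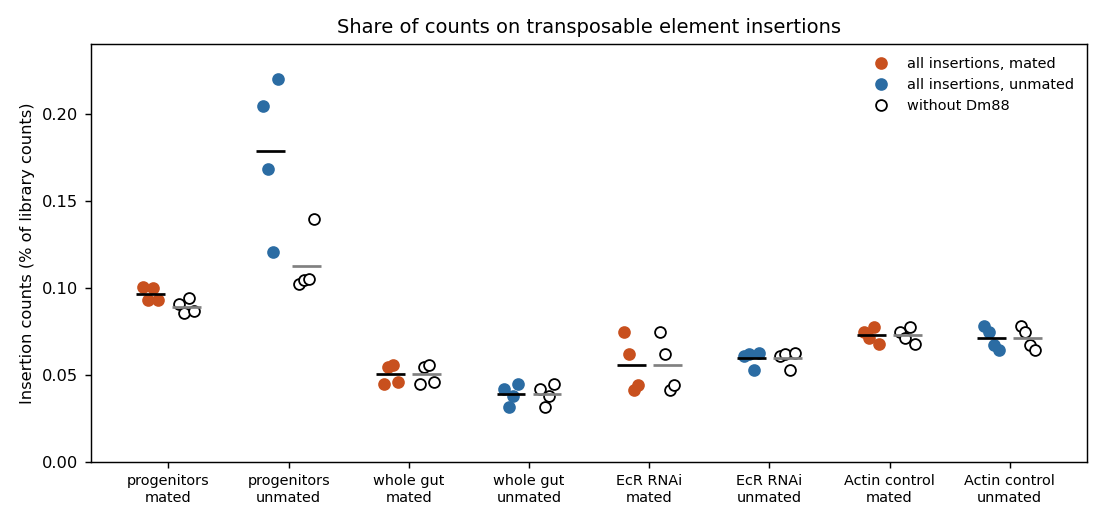
Share of all counts that fell on transposable element insertions, in percent of the library, for the 32 libraries in 8 groups. Filled points are libraries and lines the group mean (n = 4), and open points leave out the Dm88 family. Unmated progenitors averaged 0.178%, and mated progenitors averaged 0.0964%.

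The copia family, an LTR retrotransposon with many full-length copies, led in 7 of the 8 groups. It held 26.4% of element counts in mated progenitors, 46.6% in mated and 47.9% in unmated whole guts, and 47.2% to 48.4% in the Actin groups. In unmated progenitors Dm88 led instead with 36.7%. The 5 leading families together held 58.3% of element counts in mated and 73.3% in unmated progenitors, and in whole guts 71.2% in mated and 69.8% in unmated flies. Per kilobase of element, copia{}1684, a copia copy of chromosome 2L outside genes, had 9.05 CPM in mated progenitors, 12.9 CPM in unmated progenitors and 13.4 to 17.3 CPM per kilobase in the Actin groups. The most highly covered insertions per kilobase in unmated progenitors were of Dm88, with 214 CPM per kilobase for Dm88{}1660 and 191 CPM per kilobase for Dm88{}1689.

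RNA of several LTR retrotransposon families was lower in mated than in unmated progenitors. Of 80 families tested there, 26 were lower and 1 was higher in mated flies, against 21.1% lower and 19.1% higher among all genes and families of that test. Of 430 insertions tested, 163 were lower (37.9%) and 14 higher (3.26%), against 21.6% lower and 19.3% higher among all genes and insertions. Of the 163, 103 were copies of roo, whose reads cannot be assigned with certainty among copies. Without roo, 60 of 322 insertions were lower (18.6%) and 14 higher (4.35%), a share lower that is near the background. The median log2 fold change of the 430 tested insertions was -0.57, against 0.03 for genes, and 629 listed insertions were too low in counts to test. By class, 140 of 231 tested LTR insertions were lower, at a median of -1.36 on the log2 scale for the class, and 103 of these 140 were roo. Of the other 123 LTR insertions 37 were lower (30.1%), with a median of -0.54. Among non-LTR insertions 9 of 74 were lower and 1 higher, among DNA transposons 8 of 54 were lower and 2 higher, and among INE-1 6 of 67 were lower and 11 higher.

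The share of element RNA averaged 0.0964% ± 0.0042 in mated and 0.178% ± 0.0441 in unmated progenitors (SD, n = 4 each), a difference in means of -0.0819 percentage points. The groups did not overlap, and the exact two-sided permutation test gave its smallest possible p of 0.0286, or 0.0571 after adjustment over the 8 shares compared, so the difference did not pass the adjusted test. Dm88 accounted for 71.3% of that difference in share, roo for 14.4% and copia for 6.43%. Without Dm88 the share was 0.0906%, 0.0854%, 0.0941% and 0.0867% in mated progenitors, against 0.102%, 0.104%, 0.105% and 0.139% in unmated progenitors. The groups still did not overlap, and most of the spread among unmated libraries went with Dm88.

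Dm88 had 92.4, 68.9, 50.02 and 55.4 CPM in mated progenitors, against 1228, 676, 156 and 885 CPM in unmated progenitors. Every mated library lay below every unmated one, and the unmated libraries differed among themselves several-fold. The log2 fold change was -3.47 ± 0.56 (SE; edgeR, adjusted p = 0.00421). Of the 16 Dm88 insertions listed, 14 lay in a single stretch of chromosome 3R, from 12468478 to 12500980 in BDGP6. This stretch of 32.5 kb lies inside the Hsp70B heat shock locus, between Hsp70Ba (12465453 to 12467776) and the cluster of Hsp70Bbb, Hsp70Bb and Hsp70Bc, which ends at 12511461. These 14 insertions held 99.9% of all Dm88 counts in progenitors.

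Within the locus, Dm88{}1689, Dm88{}1660 and Dm88{}1659 held most of the counts. Dm88{}1689 averaged 20.5 CPM in mated cells and 243 CPM in unmated cells. Dm88{}1660 averaged 18.9 CPM in mated and 193 CPM in unmated cells, and Dm88{}1659 averaged 15.4 CPM in mated and 154 CPM in unmated cells. With mating those 3 fell by 3.56, 3.35 and 3.32 on the log2 scale. Dm88{}1295, the copy nearest to Hsp70Ba, had 0.150, 0.0301, 0.0268 and 0.140 CPM in mated cells, against 5.42, 3.09, 0.345 and 74.4 CPM in unmated cells, and its fold change was the largest of any tested insertion (-7.78 ± 1.88, SE; edgeR, adjusted p = 0.0144). Most of its unmated mean thus came from library 4. In all, 9 of 10 tested Dm88 insertions were lower in mated progenitors. Not all copies were covered alike: Dm88{}1690, at 6651 bases the longest, averaged 0.0406 CPM in mated and 0.507 CPM in unmated cells. One copy of the locus ran the other way, since Dm88{}1695 averaged 5.20 ± 6.29 CPM in mated and 0.178 ± 0.176 CPM in unmated cells (SD, n = 4 each). Copies of a family share sequence, so how reads were split among these neighbours is uncertain.

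**Figure D2:**
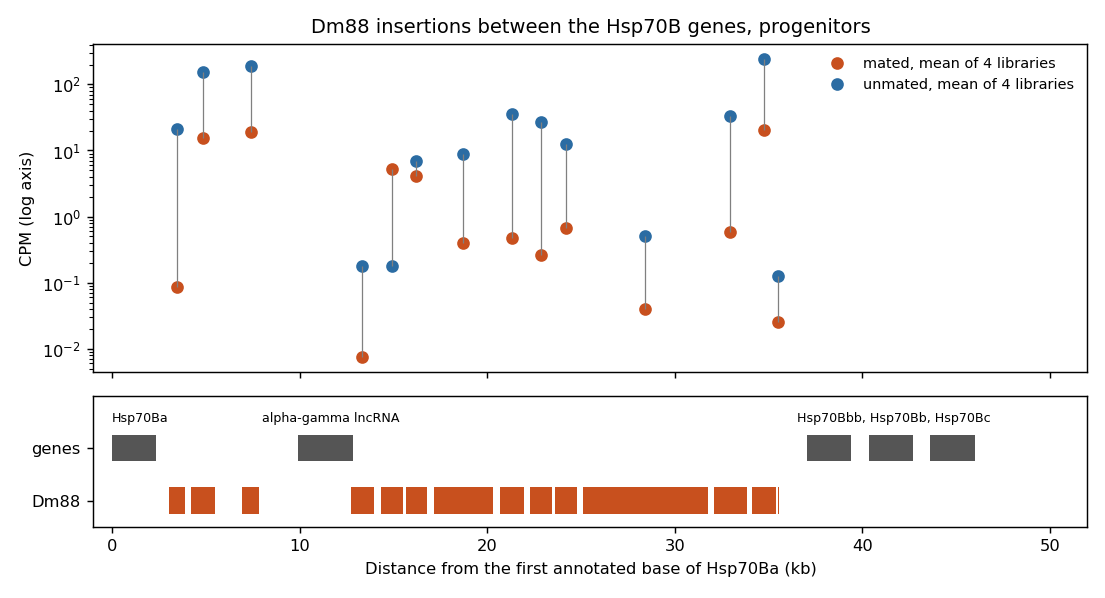
Mean CPM of the 14 Dm88 insertions of the Hsp70B locus in mated and unmated progenitors (log axis; n = 4 libraries each), against distance from the first annotated base of Hsp70Ba in kilobases, above a map of the genes and insertions. The 3 copies with the highest counts, Dm88{}1659, Dm88{}1660 and Dm88{}1689, averaged 154, 193 and 243 CPM in unmated progenitors.

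The neighbours of these insertions changed too. The noncoding RNA lncRNA:alphagamma-element:CR32865, a heat-inducible transcript of the same locus that lies among the Dm88 copies (12475336 to 12478267), had 101, 58.6, 64.9 and 44.6 CPM in mated progenitors. In unmated progenitors it had 1499, 598, 211 and 1025 CPM, and its log2 fold change was -3.63 ± 0.57 (SE; edgeR, adjusted p = 0.00419). Hsp70Ba, which encodes a heat-inducible chaperone, had 189, 109, 97.8 and 120 CPM in mated cells, against 762, 730, 363 and 836 CPM in unmated cells (-2.38 ± 0.30, SE; edgeR, adjusted p = 0.00271). All 15 heat shock genes tested were lower in mated progenitors, their median log2 fold change was -2.63, and their summed level was 5671 to 9432 CPM in mated and 20700 to 79252 CPM in unmated libraries. From high to low, the unmated libraries stood in the order 1, 4, 2 and 3 both in summed heat shock RNA and in Dm88. The part of heat shock, of the sort or of cell handling in the Dm88 result was not tested.

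The roo family, the most numerous LTR retrotransposon of the table, had 85.3, 55.4, 86.3 and 71.1 CPM in mated progenitors, against 143, 227, 189 and 298 CPM in unmated progenitors. The groups did not overlap, and the log2 fold change was -1.53 ± 0.23 (SE; edgeR, adjusted p = 0.0036). The change ran through its copies: of 123 roo insertions listed, 108 were tested, and 103 of these were lower; the median over the 108 was -1.58. Since near-identical copies share reads, 103 insertions are not 103 independent observations. From high to low, the unmated libraries stood in the order 4, 2, 3 and 1 for roo, and 1, 4, 2 and 3 for summed heat shock RNA. Every unmated library had more heat shock RNA than every mated one, and the part of heat shock in the roo result was not tested.

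Idefix and 17.6, a pair of LTR retrotransposons, gave the smallest adjusted p-values. Idefix had 8.48, 6.11, 6.11 and 6.45 CPM in mated progenitors, against 31.9, 25.4, 34.9 and 32.9 CPM in unmated progenitors, a log2 fold change of -2.21 ± 0.14 (SE; edgeR, adjusted p = 0.00048). The 17.6 family had 5.30, 3.67, 3.78 and 3.36 CPM in mated cells, against 21.9, 14.9, 17.8 and 17.2 CPM in unmated cells (-2.16 ± 0.18, SE; edgeR, adjusted p = 0.00109). Both groups were tight and far apart. Among unmated libraries, library 3 had the least heat shock RNA and the most Idefix RNA. Every unmated library had more heat shock RNA than every mated one, and the part of heat shock in these families was not tested. The LTR family opus had 0.558, 0.451, 1.10 and 0.421 CPM in mated cells, against 8.19, 4.86, 1.99 and 5.38 CPM in unmated cells (-3.01 ± 0.47). The LTR family invader1 had 2.62, 1.29, 2.04 and 1.63 CPM in mated progenitors, against 44.7, 3.71, 3.45 and 19.1 CPM in unmated progenitors (-3.21 ± 0.83), so that its fold change was carried by unmated libraries 1 and 4.

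**Figure D3:**
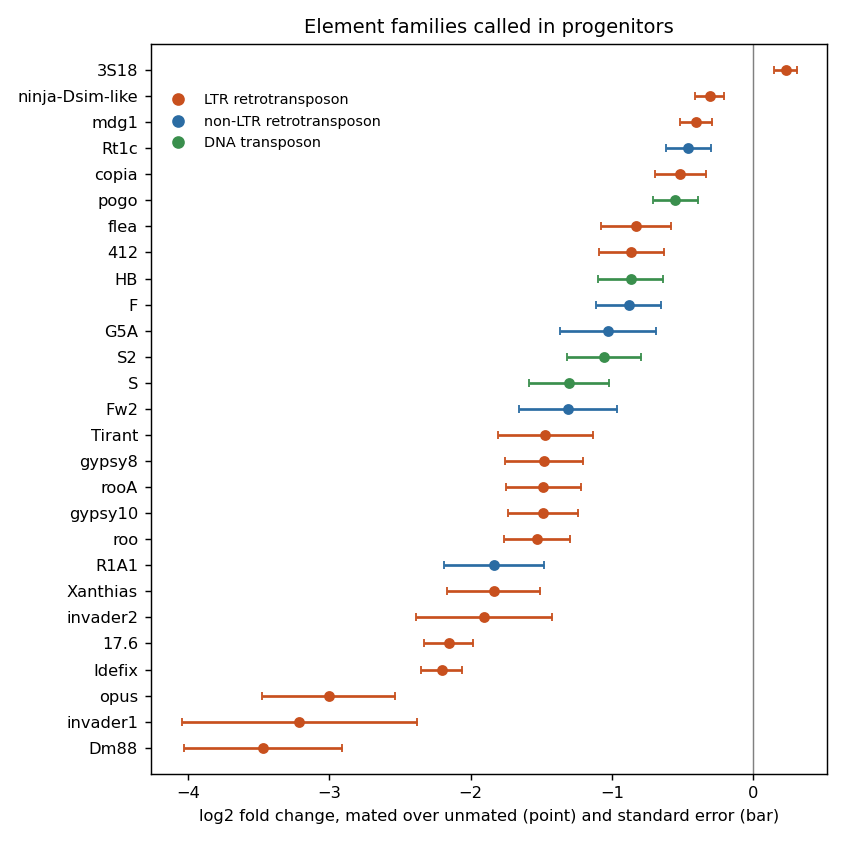
Log2 fold change, with its SE, of the 27 element families called in mated against unmated progenitors, coloured by class. Families past an adjusted p of 0.05 (edgeR) were 26 below 0 and 1 above 0, from Dm88 at -3.47 to 3S18 at 0.23.

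Lower in mated progenitors with smaller changes were the LTR families invader2 (-1.90), Xanthias (-1.84), gypsy10 (-1.49), rooA (-1.49), gypsy8 (-1.48) and Tirant (-1.47). The DNA transposons S (-1.31), S2 (-1.05), HB (-0.87) and pogo (-0.55) were lower too. So were the non-LTR families R1A1 (-1.83), Fw2 (-1.31), G5A (-1.03), F (-0.88) and Rt1c (-0.46). The copies R1A1{}536 (-2.05) and Idefix{}537 (-1.95) lay in the gene CG3635 on its strand, and CG3635 itself changed by -1.98. The calls for Rt1c and G5A were lost in 10 of 15 and 8 of 14 settings. The copia family had 236, 228, 240 and 240 CPM in mated cells, against 329, 253, 278 and 485 CPM in unmated cells. Its groups did not overlap, but its log2 fold change was small (-0.52 ± 0.18, SE; edgeR, adjusted p = 0.0471) and the call was lost in 9 of 15 alternative settings. Only 3S18, of the LTR class, was higher: 34.6, 36.6, 32.4 and 32.2 CPM in mated cells, against 27.8, 29.2, 26.9 and 31.8 CPM in unmated cells (0.23 ± 0.08, SE; edgeR, adjusted p = 0.0445), a call lost in 12 of 15 settings, DESeq2 among them.

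Unmated libraries 1 and 4 had the most heat shock RNA. Without both, 11 families and 111 insertions were called, all lower in mated progenitors. Of the 27 families called with all libraries, 10 kept the call, namely Dm88 (-2.66), opus (-2.44), Idefix (-2.16), 17.6 (-2.03), rooA (-1.54), roo (-1.49), Xanthias (-1.39), R1A1 (-1.28), gypsy10 (-1.16) and gypsy8 (-1.04). The other 17 lost it: 3S18, 412, F, Fw2, G5A, HB, Rt1c, S, S2, Tirant, copia, flea, invader1, invader2, mdg1, ninja-Dsim-like and pogo.

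**Figure D4:**
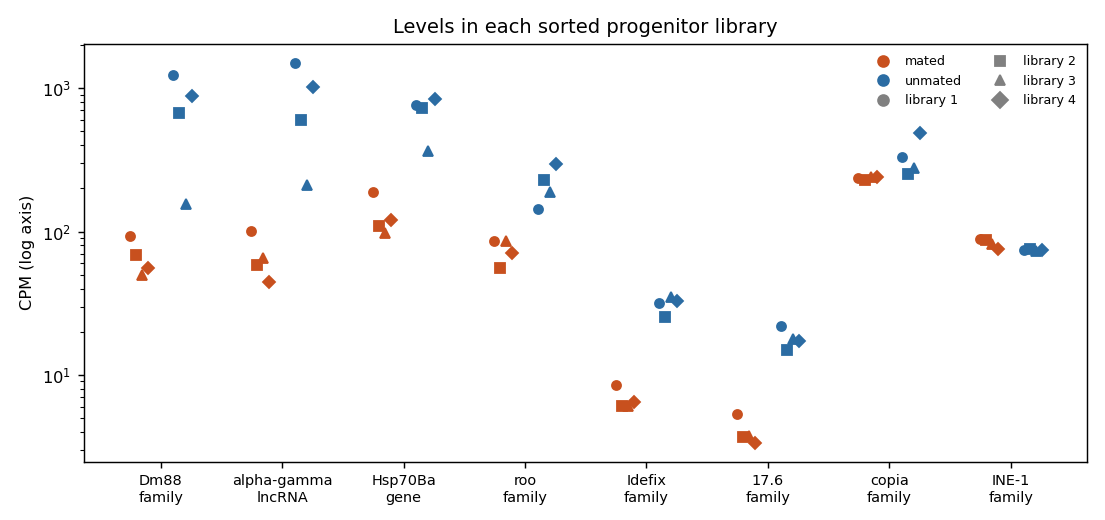
CPM (log axis) of 6 element families, of lncRNA:alphagamma-element:CR32865 and of Hsp70Ba in each of the 4 mated and 4 unmated progenitor libraries. Idefix stayed between 25.4 and 34.9 CPM in the unmated libraries, where Dm88 ran between 156 and 1228 CPM.

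All 14 insertions that were higher in mated progenitors lay in a gene and on its strand. They were 11 copies of INE-1, 2 of HB and 1 of X. This position is common among INE-1 copies: of 67 tested, 55 lay on the strand of a tested gene. Of all 430 tested insertions, 142 did. HB{}512 and HB{}2269 lie beside each other in CG2225 on chromosome 2L. HB{}512 had 1.31, 0.963, 1.10 and 1.07 CPM in mated cells, against 0.628, 0.557, 0.531 and 0.443 CPM in unmated cells (1.04 ± 0.23, SE; edgeR, adjusted p = 0.00981), and CG2225 itself was higher by 0.50. INE-1{}1945, in an intron of Slip1 on chromosome 4, had 1.61, 2.17, 1.72 and 1.71 CPM in mated cells, against 0.661, 1.08, 1.22 and 0.696 CPM in unmated cells. It rose by 0.97 and Slip1 by 0.31 on the log2 scale. Of the 14, 5 lay in a gene that was itself called higher, against 19.3% higher of all genes and insertions.

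Across the 142 tested insertions on the strand of their gene, the log2 fold change of the insertion and that of the gene correlated at a Pearson r of 0.534, and at 0.718 over the 55 INE-1 copies among them. For the 64 insertions on the opposite strand r was 0.300. These are descriptions across insertions that share libraries and, in part, host genes. Of 48 called insertions on the strand of a tested gene, 20 had a host gene called in the same direction and 28 a host that was not called. Of 33 called insertions on the opposite strand, 11 had a host called in the same direction and 22 a host that was not called. Among the 22 roo copies on the gene's strand, all lower, 10 lay in a gene that was lower and 12 in a gene that was not called. Of all genes and insertions, 19.3% were called higher and 21.6% lower. Whether hosts of called insertions are called more often than other genes was not tested.

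Genes of element silencing changed by less than the leading elements. Of 29 piRNA pathway genes tested in progenitors, 5 were higher and 5 lower in mated flies, against 19.3% higher and 21.6% lower of all tested. Called members included arx (0.69), which encodes a partner of Piwi in nuclear silencing, squ (-0.93), a germline piRNA factor, and Nxf3 (-0.68), which exports piRNA precursors in the germline. The siRNA list held 7 genes, including AGO1 and Dcr-1, which serve microRNAs, and Hen1, which was also counted in the piRNA list. Of these 7 genes 4 were higher and 1 lower. Among them r2d2 (0.40) and Dcr-2 (0.31), which make and load siRNAs, were higher, and AGO2 (-0.31), which carries them, was lower. Of 19 heterochromatin genes 11 were higher, and the median over the 19 was 0.30 on the log2 scale. The called ones include Kdm4A (0.55), a histone demethylase, egg (0.53), a histone H3 lysine 9 methyltransferase, and HP1b (0.48), a heterochromatin protein. That count was 4 without unmated libraries 1 and 4, 7 without mated library 1 and 6 without mated library 2.

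In whole guts mating changed few elements. Of 51 families tested, 1 was higher and none lower by edgeR, against 2.24% higher and 2.01% lower of all genes and families, and at an unadjusted p under 0.05 there were 7 higher and 2 lower. DESeq2 called 2 higher and 1 lower. The family was rooA, an LTR element: it had 3.59, 3.39, 5.96 and 3.303 CPM in mated whole guts, against 1.10, 1.30, 0.999 and 0.938 CPM in unmated whole guts. All mated libraries lay above all unmated ones, and the log2 fold change was 1.91 ± 0.26 (SE; edgeR, adjusted p = 0.00308). Nearly all of it came from rooA{}1506 (chromosome 4, 344055 to 346552), which lies in an intron of the calcium pump gene PMCA on the opposite strand, with a log2 fold change of 2.07. Of 104 insertions tested, 2 were higher and 1 lower, against 2.22% and 2.01% of all genes and insertions. The lower one was HB{}86, in an intron of CG15347 on chromosome X (-0.88).

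The element share in whole guts averaged 0.0501% ± 0.0058 in mated and 0.0390% ± 0.0059 in unmated flies (SD, n = 4 each; exact permutation test, p = 0.0571, adjusted p = 0.0914), a difference that did not pass. Markers of other tissues varied beside it. Summed visceral muscle genes were at 1491 to 1884 CPM in mated and 2661 to 2854 CPM in unmated whole guts, with 8 of 11 called lower. Summed ovary germline genes, of a tissue in which many elements are expressed, were at 5.60 to 48.5 CPM in mated and 7.60 to 40.4 CPM in unmated guts. Their part in the element values was not tested.

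The response to mating differed between progenitors and whole guts for 13 of 70 families in a joint test over the insertions listed in both tables, all 13 of them with the lower response in progenitors, against 12.2% lower and 9.34% higher of all genes and families. For rooA, which had 0.386, 0.361, 0.322 and 0.505 CPM in mated progenitors, against 0.958, 1.36, 0.929 and 1.17 CPM in unmated progenitors, the difference in log2 fold change between the materials was -3.37 ± 0.44 (SE; edgeR, adjusted p = 0.000225). It was higher with mating in whole guts and lower with mating in progenitors. For roo the difference was -1.93 ± 0.34 (SE; edgeR, adjusted p = 0.00172), for Idefix -1.65 ± 0.42 (adjusted p = 0.0143) and for G2 -1.62 ± 0.35 (adjusted p = 0.00681). For G2 only 1 copy was tested, also at -1.62. Among insertions 30 of 298 had the lower response in progenitors and 1 the higher, against 12% and 9.02% of all genes and insertions, so the share with the lower response was near the background. Without unmated progenitor libraries 1 and 4, the joint test called 5 families and 12 insertions in all.

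Set against whole guts of the same mating state, progenitors held 1.92 times the element share in mated and 4.57 times in unmated flies. Both exact permutation tests gave the smallest possible p of 0.0286 (n = 4 each), or 0.0571 after adjustment. These shares set 1059 insertions listed for progenitors against 501 for whole guts. Over the 364 insertions listed in all 3 tables, progenitors held 0.0716% to 0.0785% and whole guts 0.0421% to 0.0531% in mated flies. In unmated flies progenitors held 0.0770% to 0.107% and whole guts 0.0296% to 0.0427%. Of 70 families, 23 were higher and 20 lower in mated progenitors than in mated whole guts, against 43.1% higher and 39.7% lower of all genes and families. In unmated flies 34 were higher and 12 lower, against 42.2% and 38.7%. Among 298 insertions, 120 were higher and 48 lower in mated flies, against 42.6% and 39.3% of all genes and insertions. In unmated flies 150 were higher and 36 lower, against 42% and 38.5%. The material and the number of guts differ together between these tables and cannot be told apart.

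The LTR family diver2 had 48.5, 49.9, 33.0 and 31.9 CPM in mated progenitors, against 2.03, 2.02, 1.97 and 2.18 CPM in mated whole guts, a log2 fold change of 3.76 ± 0.23 (SE; edgeR, adjusted p = 3.89e-10). Its counts came mostly from diver2{}1632, a copy outside genes on chromosome 2R (5048677 to 5060606), with 28.8 to 46.1 CPM in mated progenitors and 1.40 to 1.49 CPM in mated whole guts. The DNA transposon pogo had 59.1, 46.0, 69.0 and 54.4 CPM in mated progenitors, against 3.08, 6.24, 6.59 and 5.93 CPM in mated whole guts (2.83 ± 0.24). Its counts came mostly from pogo{}4759, in an intron of the histone pseudogene His-Psi:CR33867 on chromosome 2L, with 41.6 to 63.7 CPM in mated progenitors and 1.60 to 5.24 CPM in mated whole guts. Thus a single copy set the family value in both cases. The families 3S18 (2.93), gypsy5 (3.91) and Fw2 (4.36) were also higher in mated progenitors. Fw2 had 1 copy listed for whole guts and gypsy5 1 copy for progenitors, so each of these 2 values was that of 1 insertion. In unmated flies diver2 (3.68), pogo (3.14), 3S18 (2.40), gypsy5 (4.06) and Fw2 (6.69) had the same direction. These are examples and not a ranking. Dm88, with 16 copies listed for progenitors and 2 for whole guts, held 0.00719% of counts in mated and 0.0656% in unmated progenitors. Without it the element share of whole guts was 0.05013% rather than 0.05014% in mated and 0.03896% rather than 0.03899% in unmated flies. Of roo copies on the strand of a tested gene, 12 of 13 were higher in mated and 13 of 13 in unmated progenitors. On the opposite strand 11 of 14 and 13 of 14 were higher.

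Lower in progenitors were G2, rooA, springer, S and HMS-Beagle. The non-LTR element G2 had 0.558, 0.632, 0.375 and 1.21 CPM in mated progenitors, against 23.0, 22.9, 27.7 and 23.1 CPM in mated whole guts (-6.57 ± 0.27, SE; edgeR, adjusted p = 4.77e-12), and -4.94 in unmated flies. The groups were far apart in every library. The only G2 copy tested, G2{}340, differed by -6.58 in mated and -4.96 in unmated flies, so the family value was close to that of 1 insertion. In mated flies springer differed by -4.00 and HMS-Beagle by -2.55, and in unmated flies by -3.40 and -2.80. The copia family differed by -0.40 in mated flies in this test, while its level computed within each table was 228 to 240 CPM in mated progenitors and 179 to 253 CPM in mated whole guts, and no direction is drawn from it. Of 29 tested copia copies, 0 were higher and 4 lower in mated progenitors than in mated whole guts (median 0.03). In unmated flies 17 were higher and 2 lower (median 0.97), against 42% and 38.5% of all genes and insertions. Copies of INE-1 on the strand of their gene followed it across these materials, with r of 0.842 over 53 copies in mated and 0.833 in unmated flies. For the 13 roo copies on the strand of their gene r was -0.244 in mated and 0.105 in unmated flies.

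Between the Actin genotypes, single insertions differed with large folds. Libraries labelled EcR RNAi and their controls differ in the RNAi transgene and in the stock that carries it, which cannot be told apart, and EcR RNA was not lower in them. Of 222 insertions tested, 17 were higher and 29 lower in unmated EcR RNAi guts than in unmated controls, against 8.03% higher and 7.37% lower of all genes and insertions. In mated flies 16 were higher and 27 lower, against 3.92% and 5.16%. The same comparison at family level gave 10 higher and 13 lower of 64 in unmated flies, against 8.05% and 7.36%, and 5 higher and 13 lower in mated flies, against 3.86% and 5.1%.

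The mated and unmated comparisons share no library, but they come from 1 fit with a shared estimate of spread and the same genotypes. Their agreement is thus not an independent replication. In all, 38 insertions were called in both. That is 82.6% of the 46 called in unmated flies and 88.4% of the 43 called in mated flies. All 38 had the same direction in both, 13 higher and 25 lower. Among genes 480 were called in both, 34.8% of the 1379 called in unmated flies and 60.2% of the 798 called in mated flies, all 480 in the same direction. The difference in overlap between insertions and genes was not tested. The 38 insertions came from 25 families, and 24 of the 38 insertions were LTR retrotransposons, a class with 92 of the 222 tested insertions. Of the 38, 24 lay in a gene, and for 18 the gene was tested: 15 of these genes were called in neither comparison and 3 in at least 1. Of all 222 tested insertions, 122 lay in an intron, 15 overlapped an exon and 85 lay in no gene. Over all genes and insertions, 8.03% were called higher and 7.37% lower in unmated flies, and 3.92% and 5.16% in mated flies. Whether these host genes differ from other genes was not tested. At family level 17 were called in both, 5 higher and 12 lower.

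**Figure D5:**
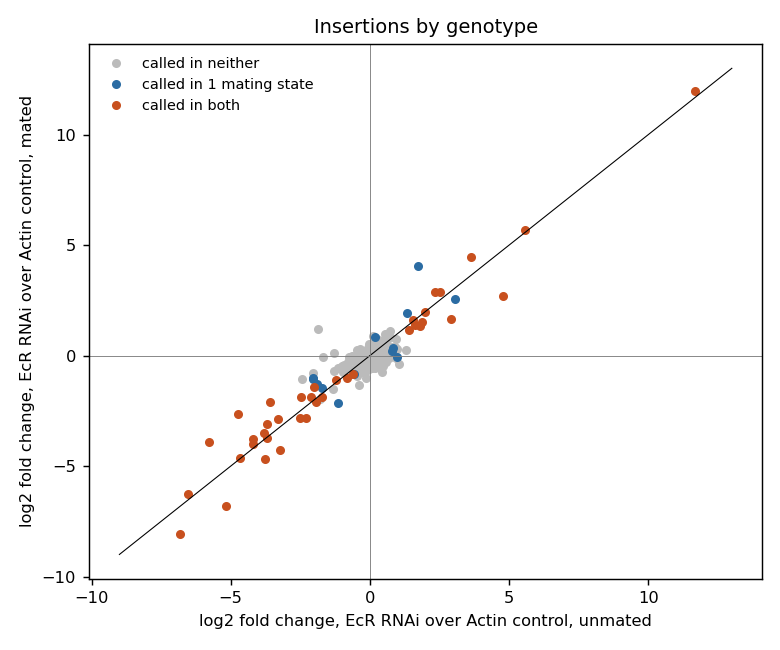
Log2 fold change of insertions in EcR RNAi against control Actin guts, unmated on the x axis and mated on the y axis. Points called in both comparisons number 38, with 13 higher in both and 25 lower in both. The point at the upper right is G2{}340, at 0 in all controls, whose fitted value depends on the prior count.

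The clearest case was G2{}340, a copy of the non-LTR element G2 that lies outside genes on chromosome 2L (11315294 to 11317659). It had 18.6, 25.1, 21.3 and 18.7 CPM in mated EcR RNAi guts and 13.6, 22.1, 9.70 and 23.6 CPM in unmated EcR RNAi guts, against 0 counts in all 8 control libraries. With 216 to 631 counts in each EcR RNAi library, it was at least 1281-fold higher than the level of 3 counts over the 8 control libraries. It was present in esg-Gal4 whole guts as well, at 208 to 600 counts in each library. None of 10406 genes was at 0 in all control libraries and at 10 or more counts in each EcR RNAi library, and 2 genes met that rule the other way round. The control libraries at 0 thus set G2{}340 apart both from EcR RNAi guts and from esg-Gal4 guts.

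Other copies were nearly so. The LTR copy flea{}810, which overlaps an exon of CG7741 on the opposite strand, had 7.14, 6.10, 5.28 and 4.76 CPM in mated EcR RNAi guts, against 0, 0.153, 0.204 and 0.104 CPM in mated controls. Its log2 fold change was 5.66 ± 0.41 in mated and 5.57 ± 0.40 in unmated flies (SE; edgeR, adjusted p = 3.61e-07 and 3.98e-07), while that of CG7741 was -0.08 and -0.06. FB{}ph-p[FB], a foldback element in an intron of the Polycomb group gene ph-p, had 0 CPM in every mated EcR RNAi library, against 1.59, 1.23, 1.47 and 1.25 CPM in mated controls. In unmated EcR RNAi guts it had 0, 0, 0.0449 and 0 CPM, against 2.15, 2.71, 1.09 and 1.54 CPM in unmated controls, and ph-p itself differed by -0.08 in mated and 0.13 in unmated flies. The DNA transposon copy hopper{}368 was at 0 in all 8 EcR RNAi libraries, against 0.159 to 0.653 CPM in the 8 controls. The LTR copy 17.6{}1213 in plh was at 0 to 0.0449 CPM in EcR RNAi guts and at 0.476 to 1.25 CPM in controls.

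The copia total was not called while single copies were. Its level was 395, 316, 177 and 206 CPM in mated EcR RNAi guts, against 299, 293, 438 and 364 CPM in mated controls (-0.35 ± 0.22, SE; edgeR, adjusted p = 0.414). Its copies moved in both directions. The copy copia{}988 (chromosome 3L, 12957842 to 12962265) had 2.64, 1.95, 2.00 and 2.33 CPM in mated EcR RNAi guts, against 27.3, 25.9, 36.0 and 30.8 CPM in mated controls (-3.74 ± 0.22). Another, copia{}293 on chromosome 2L, was lower by 3.99 on the log2 scale in mated flies. The copy copia{}1467, in an intron of the kinase gene Gprk2 on the opposite strand, had 26.1, 28.0, 16.9 and 15.8 CPM in mated EcR RNAi guts, against 4.44, 1.92, 1.67 and 3.59 CPM in mated controls (2.89 ± 0.40, SE; edgeR, adjusted p = 0.000652). As a share of copia counts, copia{}631 in Nipped-A held 26.0% in mated EcR RNAi guts, 21.3% in mated Actin controls, 4.11% in mated progenitors and 4.04% in mated esg-Gal4 whole guts. In unmated flies its share was 25.2% in EcR RNAi guts, 20.2% in Actin controls, 4.11% in progenitors and 3.55% in esg-Gal4 whole guts.

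Families that differed in both mating states were, on the lower side, hopper (-6.69 mated, -5.26 unmated), Transpac (-3.22, -3.29), ninja-Dsim-like (-2.69, -2.05), Bari1 (-1.51, -1.11), Idefix (-1.44, -1.85), 17.6 (-1.17, -2.12), roo (-0.82, -0.80) and Doc (-0.67, -0.48), with the mated value first. On the higher side were pogo (1.21, 1.42), Max (0.89, 0.91), 3S18 (0.76, 0.82) and Tirant (1.45, 1.53), besides G2. The call for Tirant was lost in 5 of 14 settings in each state. Doc had 67.4, 58.4, 72.1 and 64.1 CPM in mated EcR RNAi guts, against 107, 107, 102 and 100 CPM in mated controls, with no overlap. The LTR family HMS-Beagle had 15.1, 21.5, 15.2 and 5.60 CPM in unmated EcR RNAi guts, against 78.3, 58.6, 53.3 and 32.2 CPM in unmated controls (-1.95 ± 0.42, SE; edgeR, adjusted p = 0.00799).

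The summed element share was lower in both EcR RNAi groups without passing the adjusted test. It averaged 0.0554% ± 0.0156 in mated EcR RNAi guts and 0.0726% ± 0.0042 in mated controls (SD, n = 4 each; exact permutation test, p = 0.0857, adjusted p = 0.114). It averaged 0.0595% ± 0.0045 in unmated EcR RNAi guts and 0.0709% ± 0.0065 in unmated controls (SD, n = 4 each; exact permutation test, p = 0.0286, adjusted p = 0.0571). Of 29 piRNA pathway genes, 1 was higher and 1 lower in mated EcR RNAi guts, and 3 were higher and 3 lower in unmated EcR RNAi guts. Of the 7 genes of the siRNA list, AGO1 and Dcr-1 included, 1 was higher in mated and 3 in unmated flies. Of 19 heterochromatin genes edgeR called 0 in either state, DESeq2 called 2 higher in unmated and 0 in mated flies, and 4 in unmated and 1 in mated flies were higher at an unadjusted p under 0.05. The shares over all genes and insertions were 3.92% higher and 5.16% lower in mated flies, and 8.03% higher and 7.37% lower in unmated flies. Among called members, spn-E, a piRNA pathway helicase, was lower in EcR RNAi guts by 1.97 in mated and by 1.83 in unmated flies on the log2 scale (edgeR, adjusted p = 3.8e-05 and 8.2e-05). The piRNA factor tej was higher (0.63 mated, 0.83 unmated), as was AGO2 (0.39 mated, 0.55 unmated). Dcr-2 was higher in unmated flies (0.50).

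Mating changed few elements in Actin guts of either genotype. In controls 2 of 64 families were higher and 1 lower, against 2.73% and 4.1% of all genes and families, and 1 of 222 insertions was higher and 2 lower, against 2.6% and 4%. Doc had 107, 107, 102 and 100 CPM in mated controls, against 87.3, 87.8, 79.96 and 66.9 CPM in unmated controls (0.37 ± 0.09, SE; edgeR, adjusted p = 0.0207), with no overlap. Its called copy, Doc{}CHKov1[Doc1420], overlaps an exon of CHKov1 on its strand. The LTR family Quasimodo was higher (1.08) and HMS-Beagle2 lower (-0.93), calls that were lost in 7 of 15 and 6 of 14 settings. In EcR RNAi guts 5 families were lower with mating and 0 higher by edgeR, against 5.37% and 5.24%, with 11 lower and 2 higher at an unadjusted p under 0.05 and 6 lower and 0 higher by DESeq2. At insertion level 1 was higher and 8 lower, against 5.1% and 5.3%. The families were Ivk (-1.52), X (-1.09), Tc3 (-0.98), Rt1c (-0.58) and 1360 (-0.45), and these calls were lost in 4 of 14 settings for Ivk, 5 of 14 for Tc3, 8 of 15 for Rt1c and 5 of 15 for 1360. Ivk had 0.496, 0.757, 0.440 and 0.269 CPM in mated EcR RNAi guts, against 1.96, 1.44, 1.26 and 1.04 CPM in unmated EcR RNAi guts, with no overlap.

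No element's response to mating was shown to differ between EcR RNAi and control guts. The interaction test called 0 of 64 families and 0 of 222 insertions, as did DESeq2, and it called 0% of all genes and insertions. At an unadjusted p under 0.05 it gave 2 families with the higher and 4 with the lower response in EcR RNAi guts, and 2 insertions with the higher and 1 with the lower. The element share averaged 0.0554% in mated and 0.0595% in unmated EcR RNAi guts (exact permutation test, p = 0.743), and 0.0726% in mated and 0.0709% in unmated controls (exact permutation test, p = 0.714).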

How the data were processed

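Raw counts per gene and per insertion were deposited for 3 tables, which the authors made with STAR, HTSeq and DESeq2 on BDGP6 and dm6, per the submitters' processing notes. No version, strand setting or treatment of reads that map to several copies is given in the sources used here, so counts of near-identical copies, and of an insertion and its overlapping gene, are uncertain. Libraries were poly(A)-selected with a directional kit, per the labels' protocols. The 15 Myo1A samples were not used here, since their file repeats the whole gut columns, and 16 columns that match no sample were not used here. The remaining insertion called higher with mating in whole guts is not reported here.

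Insertion counts were tested with edgeR 4.0.16 (R 4.3.3; quasi-likelihood, robust, TMM, filterByExpr with a minimum count of 10 and total of 15) in fits on the whole table, once with each insertion and once with insertions summed by family beside all genes. Benjamini-Hochberg adjustment ran over everything tested, and an adjusted p under 0.05 was called. SEs are derived from the quasi-likelihood F. The Actin table was fitted with its 16 libraries together, and progenitors and whole guts jointly over what both tables list (for Dm88, 2 insertions). Shares were compared by exact two-sided permutation tests. Total counts per library, given in the report, limit precision. Positions and host genes come from the BDGP6 annotation.

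Members and gene lists were chosen with earlier results of these data known. Named families are the 12 with the highest mean CPM and, for each comparison, all called families or the 6 highest and 6 lowest. Named insertions are the 10 with the highest mean CPM and the 5 highest and 5 lowest called without overlap. Called members with the smallest p were named from the silencing lists. Others were named after their values were seen, including invader2, Xanthias and the further lower progenitor families, the Dm88 copies of the locus, and most copia copies.

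Same-numbered mated and unmated Actin control libraries deviated together (r of 0.302, 0.231, 0.109 and 0.159), so their numbers met the criterion for pairs (every r over 0.1), from the data and not from the labels, although only 1 of the 4 mated libraries correlated best with its own number. The values printed come from fits without the replicate block, and with it every named call of that comparison was kept. DESeq2 1.42.0, other scalings, other filters, the replicate block and leaving out each library were run as alternatives. The fitting was tested on simulated data.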

Additional observations from a re-analysis of the deposited data

Results flagged for a closer look

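Of 100 groups of 4 libraries examined, 12 held a library that stood apart from the rest, and chance alone gives about 5%. The gap of the extreme library, as a share of the group's range, was 1 for Dm88 and 0.962 for G2 in mated whole guts, 0.856 for Dm88 in unmated whole guts, 0.853 for flea in mated progenitors and 0.936 for H in unmated progenitors. In mated Actin controls it was 0.919 for INE-1 and 0.889 for pogo. In mated EcR RNAi guts it was 0.843 for INE-1, 0.891 for roo, 0.843 for 1360 and 0.839 for H, and in unmated EcR RNAi guts it was 0.830 for the element share. Dm88 was near the floor in whole guts. Among the mated ones only library 3 held Dm88 counts, with an element share of 0.05556% with Dm88 and 0.05553% without it. In unmated library 1 these shares were 0.04202% and 0.04192%.

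The response to mating differed between progenitors and whole guts for 13 families, by edgeR's test of the difference itself. The log2 difference, progenitors minus whole guts, was -3.47 for gypsy8, -3.37 for rooA, -2.85 for invader2, -2.49 for R1A1, -1.96 for Xanthias, -1.93 for roo and -1.92 for Bari1. It was -1.65 for Idefix, -1.62 for G2, -1.54 for gypsy10, -1.27 for S, -1.08 for Rt1c and -0.701 for ninja-Dsim-like. The call was lost in 13 of 22 settings for invader2, 13 of 23 for S and 5 of 23 for ninja-Dsim-like.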

How the results depend on the processing

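None of 241 named fold changes reversed a called value in 3849 reruns, while 268 reruns lost a call and 20 gained one. DESeq2 called 3 families with mating in whole guts and 5 insertions in Actin controls. In whole guts DESeq2 size factors and upper quartile scaling each gave 2 families. A minimum count of 50 left 49 insertions with mating in progenitors, 3 families and 2 insertions in EcR RNAi guts, 15 families and 22 insertions between unmated genotypes, 19 insertions between mated genotypes, 54 and 57 insertions between mated and unmated progenitors and whole guts, and 15 insertions for the difference in mating response. No filter gave 77 insertions between unmated genotypes. Fitting only the compared groups gave 0 families with mating in Actin controls by edgeR, where an unadjusted p under 0.05 was reached by 4 upward and 4 downward (DESeq2 on all Actin groups called 3 higher and 1 lower), and 27 insertions between mated genotypes. Scaling by library total put summed element levels at 501 CPM in whole guts of mated flies, against 390 CPM in those of unmated flies, where TMM gave 463 and 419 CPM. For progenitors it gave 964 CPM with mating, against 1783 CPM without, where TMM gave 889 and 1962 CPM. Without unmated progenitor libraries 1 and 4, chosen after seeing the data, counts were 11 families and 111 insertions for mating in progenitors, 5 families and 12 insertions for the difference in response, and 4 heterochromatin genes. The cause of these shifts was not tested, beyond fewer features or libraries entering.

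Leaving out single libraries, mating changed the share by -0.00061 to 0.00404 percentage points in Actin controls and by -0.0104 to 0.000538 in EcR RNAi guts, each reversing without 1 library, and the genotype difference in mated flies ran between -0.0235 and -0.0125. Family counts ran between 1 and 2 in whole guts, 1 and 4 in Actin controls and 1 and 7 in EcR RNAi guts, insertion counts between 1 and 4, 0 and 3 (where edgeR called 0, an unadjusted p under 0.05 was reached by 5 to 9 upward and 9 to 11 downward), and 1 and 8, and heterochromatin genes between 6 and 13. With the replicate block, whole guts kept 1 called insertion, and no other count of calls moved by over 1.5 times. Same-numbered libraries correlated between -0.142 and 0.281 outside Actin controls. Counts of a few reads, and copies that share reads, limit what single insertions show.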
